A study of Mus musculus with 6 samples.

Results

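The genes described here encode the nuclear pore and the proteins that carry cargo through it, in cultured mouse CD8 T cells of 2 ages. They were the protein-coding genes whose symbol begins with Nup or Ipo and a digit, or with Tnpo, Kpna, Kpnb or Xpo, together with Ran, Ranbp1, Rangap1, Rcc1 and Cse1l, with a mean of at least 1 count per 1000000 counts of the library (CPM) over the 6 libraries. There were 46 such genes among 10511 with that mean and 25654 identifiers with a value. They comprised 19 nucleoporins, 16 import receptors or adaptors, 7 export receptors and 4 genes of the Ran cycle. Of 49 symbols that matched, Nup210l, Kpna7 and Nup62cl lay below the level filter. The lowest member, Nup43, had a mean of 7.82 CPM, and the highest gene left out, Nup210l, had 0.271 CPM.

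The nuclear pore is a channel through the nuclear envelope, built of many copies of the nucleoporins in rings, with a barrier of disordered repeats in its centre. Importins bind cargo in the cytoplasm and exportins bind it in the nucleus, and both let go of it or take it up according to the small GTPase Ran, which is kept in its GTP form in the nucleus and its GDP form in the cytoplasm. In T cells, activation enlarges the nucleus, and regulators such as NFAT and NF-kB enter the nucleus through these receptors.

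The aged group was CD8 T cells from wild-type female C57BL/6 mice of around 65 weeks, and the young group the same cells from mice of 6 weeks. Cells were isolated from the spleen, stimulated for 2 days with plate-bound antibodies to the T cell receptor beta chain (3 µg/ml) and CD28 (1 µg/ml) and interleukin 2 (10 ng/ml), then kept for 5 days in interleukin 2. Each group had 3 libraries, labelled biological replicates. The labels leave unsaid whether each came from its own mouse, so the p-values rest on the spread among the libraries alone, which may in part be technical. A culture that ran differently for the 2 ages cannot be told apart from age itself.

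Libraries held 1952552 to 2608553 reads in the aged group and 2300219 to 2785915 in the young group. They were 3' end libraries, in which a tag stands for a transcript end whatever the transcript's length. Levels of different genes can be compared only roughly, since overlapping exons and shared transcript ends can also affect them. On the first principal component, with 50.4% of the variance, aged libraries lay at -30.05 to -24.36 and young libraries at 25.34 to 29.9. CD8 T cell markers summed to 6894 to 8444 CPM in aged and 6537 to 6704 CPM in young libraries. Of these 10 markers 1 rose and 5 fell, and all were well detected. The marker that rose, Gzmb, made up most of the sum, at 4771 to 6155 CPM in aged and 3842 to 3896 CPM in young libraries. Those that fell were Cd3d, Cd3e, Cd3g, Cd2 and Cd8b1. Of the 7 B and plasma cell markers 5 were at 0 throughout, Ms4a1, Cd79a, Pax5 and Blk among them, and the sum was 0 to 1.53 CPM in aged and 2.87 to 13.1 CPM in young libraries, with Cd79b, the 1 marker tested, lower in aged cells. Of the 10 myeloid markers 4, Lyz2, Adgre1, S100a8 and Flt3, were at 0 throughout, and the sum was 11.3 to 22.1 CPM in aged and 16.1 to 21.7 CPM in young libraries. Of the 4 myeloid markers tested 2 fell, Itgam and Cd68, and 0 rose, while Csf1r was at 0, 0 and 7.06 CPM in the aged libraries and at 0 in every young library. The 4 markers of CD4 and regulatory T cells summed to 11.3 to 18.95 CPM in aged and 19.6 to 23.7 CPM in young libraries, and the 8 erythroid and platelet markers, with Pf4 and Hbb-bs among those at 0, to 1.15 to 4.71 CPM in aged and 10.4 to 22.3 CPM in young libraries. Of the 2 and 3 markers of these lists tested, Zbtb7b and Hbb-bt fell and 0 rose. The 5 NK cell markers, which activated CD8 T cells also express, summed to 206.6 to 261 CPM in aged and 162.5 to 193 CPM in young libraries. Of the 4 tested 2 rose, Klre1 and Eomes. Most of the sum was Eomes, at 178 to 230 CPM in aged and 136 to 163 CPM in young libraries. Klrb1c and Tyrobp had log2 fold changes of -0.52 and -0.385 and did not pass. All 16 proliferation markers tested, Mki67, Cdk1 and Pcna among them, rose in aged cells, with a median log2 fold change of 1.01 and sums of 3712 to 3803 CPM in aged and 1866 to 2450 CPM in young libraries. The part of proliferation in the differences below was not tested, and in bulk RNA more cells in cycle and more RNA per cell cannot be told apart.

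More than 1 in 2 genes of the transport machinery rose in aged cells, among them all 4 genes of the Ran cycle, the scaffold nucleoporins Nup93 and Nup107, importin beta (Kpnb1) and the exportin Xpo1. Of the 46 genes 25 rose, 0 fell and 21 did not pass the test, which was limma on log2(CPM + 1) with Benjamini-Hochberg adjustment over all 10511 genes and a threshold of 0.05. Of all tested genes 16.2% rose and 12.5% fell. Of the 7808 tested genes with at least the mean CPM of the lowest member, 1604 (20.5%) rose and 1110 fell. In 2126 of these 7808 every aged library was above every young library. The median log2 fold change (aged minus young) of the 46 genes was 0.51, against 0.03 over all tested genes and 0.06 over those 7808. A positive value was found in 43 of the 46. Of the 3 negative values, those of Nup210, Tnpo2 and Xpo6, 0 had an unadjusted limma p under 0.05, and edgeR, DESeq2 and limma-voom also called 0 of the 46 lower. In 31 of the 46 every aged library was above every young library, as in 22.5% of all tested genes, and in 0 of the 46 every aged library was below every young library, as in 18.3% of all tested genes. Summed over the 46 genes, the level was 4853 ± 119 CPM in aged and 3277 ± 169.8 CPM in young cells (SD, n = 3 each), 1.48-fold higher. With upper-quartile scaling 23 of the 46 rose and 0 fell, while over all genes 1306 rose and 1689 fell, against 1701 and 1313 without it. Without the 20 members whose exons overlap another gene's or whose transcript end matches another gene's, 13 of 26 rose and 0 fell.

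**Figure D1:**
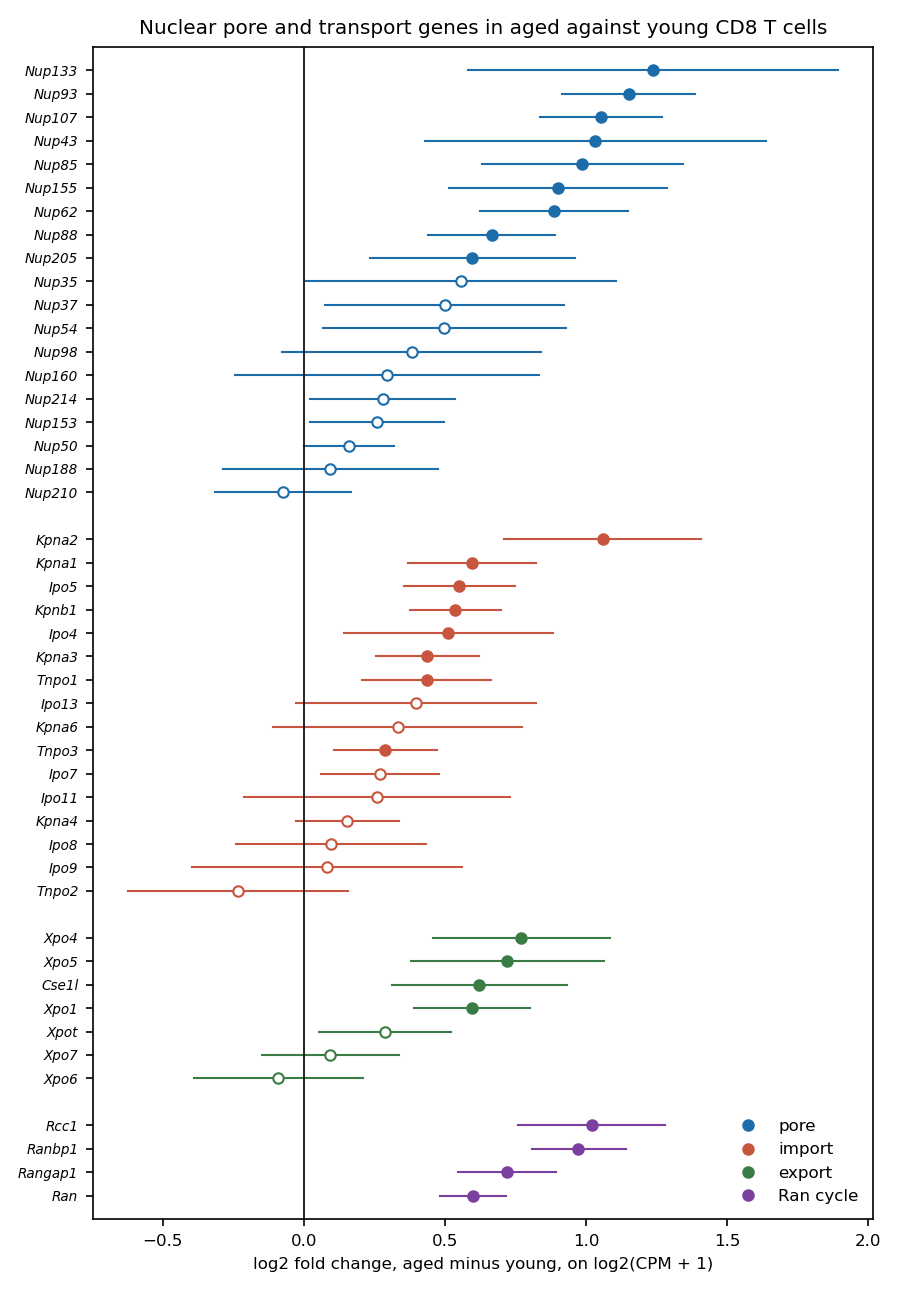
Log2 fold change of each of the 46 genes, aged minus young on log2(CPM + 1), with its 95% interval from limma; filled points passed the adjusted threshold and open points did not. All 4 genes of the Ran cycle and 9 of 19 nucleoporins are filled, and Tnpo2, Xpo6 and Nup210 have the 3 negative values.

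Split by role, 9 of 19 pore genes rose (median log2 fold change 0.56), as did 8 of 16 import genes (0.36), 4 of 7 export genes (0.60) and 4 of 4 genes of the Ran cycle (0.85). Pore genes summed to 1134 ± 30.1 CPM in aged and 782 ± 27.2 CPM in young cells (SD, n = 3 each), 1.45-fold higher. Import genes summed to 1457 ± 42.0 CPM in aged and 1069 ± 78.1 CPM in young cells, 1.36-fold higher, and export genes to 484 ± 20.9 CPM in aged and 358 ± 25.6 CPM in young cells, 1.35-fold higher. The Ran cycle summed to 1779 ± 60.7 CPM in aged and 1068 ± 66.4 CPM in young cells, 1.67-fold higher. In each of the 4 classes the lowest aged sum was above the highest young sum. Whether the classes differ from each other was not tested, and within each of pore, import and export some genes passed and others did not.

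**Figure D2:**
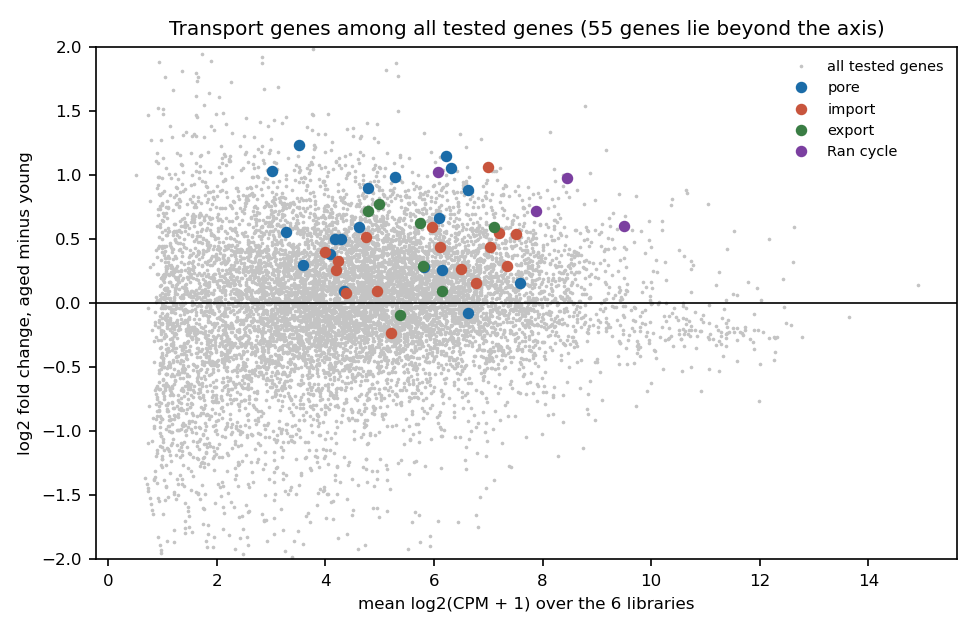
Log2 fold change, aged minus young, against the mean log2(CPM + 1) over the 6 libraries for all 10511 tested genes (grey) and for the 46 transport genes, coloured by class; 55 genes lie beyond the axis. The transport genes lie mostly above the zero line, with a median of 0.51 against 0.03 for all genes.

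Each gene of the Ran cycle rose, and Ran, Ranbp1 and Rangap1 had the 3 highest levels of the 46 genes in both groups. Ran (ENSMUSG00000029430, chromosome 5, 129020069 to 129024323, GRCm38), the GTPase that gives transport its direction, had 869, 917 and 896 CPM in the aged libraries, against 603, 572 and 595 CPM in the young libraries. The groups did not overlap and lay within a narrow range each, with at least 1386 reads in every library. Ran was 1.52-fold higher, a log2 fold change of 0.60 ± 0.06 (SE; limma adjusted p = 1.8e-07).

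Ranbp1, which helps the GTPase-activating protein release Ran from receptors in the cytoplasm, had 454, 492 and 522 CPM in the aged libraries, against 259, 219 and 270.1 CPM in the young libraries. It was 1.96-fold higher with no overlap, a log2 fold change of 0.97 ± 0.08 (limma adjusted p = 4.43e-08, the smallest of the 46). Its exons overlap those of Trmt2a (17.2 CPM) on the other strand, so its value is uncertain if the counting ignored strand. The level of Ranbp1 relative to Ran within a library was 0.522, 0.537 and 0.583 in aged and 0.430, 0.383 and 0.454 in young libraries, a ratio chosen after the values were seen and given without a test.

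Rangap1, the GTPase-activating protein that sits on the cytoplasmic face of the pore, had 299, 312 and 290.4 CPM in the aged libraries, against 173, 167 and 208 CPM in the young libraries. It rose by 0.72 ± 0.08 on the log2 scale (SE; limma adjusted p = 2.61e-06). Its transcript end matches one of Rpgrip1 (7.26 CPM), and its exons overlap those of Zc3h7b (19.7 CPM) on the other strand. Rcc1, the chromatin-bound exchange factor that loads Ran with GTP in the nucleus, had 87.1, 99.7 and 97.0 CPM in the aged libraries, against 49.1, 37.7 and 52.6 CPM in the young libraries. Each aged library had more than the highest young library, and the log2 fold change was 1.02 ± 0.12 (limma adjusted p = 5.15e-06). Exons of Rcc1 overlap those of the noncoding gene Snhg3 on the same strand, which has no value here. Transcripts of Ran, Ranbp1, Rangap1 and Rcc1 were thus all higher in aged cells. The tested genes of the lists below whose symbols begin with Ran did not pass. Their log2 fold changes were 0.14 for Ranbp2, 0.37 for Ranbp3, 0.39 for Rangrf and -0.42 for Ranbp6.

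**Figure D3:**
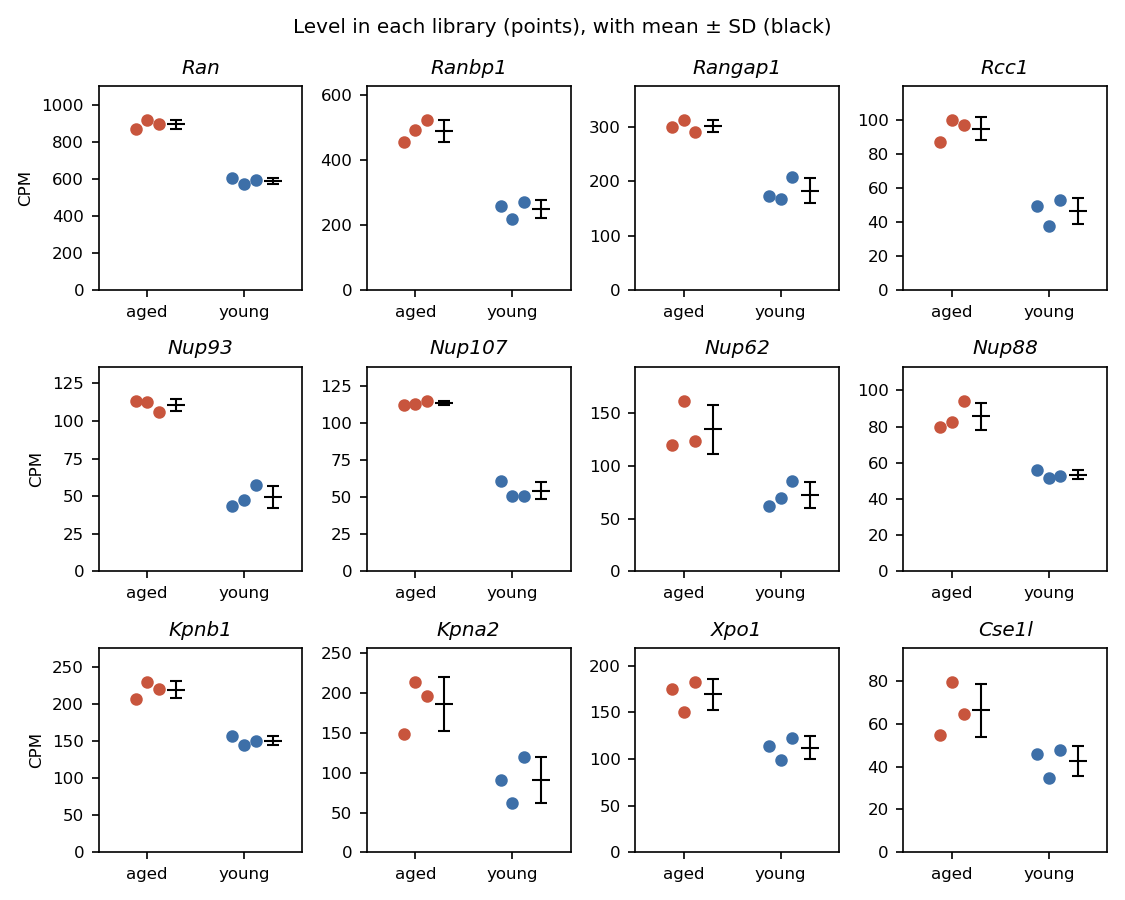
CPM of 12 transport genes in each library, aged left and young right, with the mean and SD of 3 libraries beside the points; every axis starts at 0. In all 12 the aged points lie above the young points, from Ran at 869 to 917 CPM in aged and 572 to 603 CPM in young libraries down to Cse1l at 54.8 to 79.3 CPM in aged and 34.5 to 47.6 CPM in young libraries.

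Promoters are shown for Ran, Nup93 and Nup107, which rank among the 5 members with the smallest p and have one of the motifs marked by capitals in the bases before the start that lie outside annotated exons. Of the other members among the 5, Rangap1 has a GC box alone in such bases, which capitals do not mark, and Ranbp1 has no such stretch. Sequences are those of RefSeq on GRCm38.p6, 5′ to 3′ on the strand of the gene. Capitals mark the E-box CACGTG, the palindromic NRF1 motif (the run of 10 capitals in Ran and Nup107), CCAAT or its complement ATTGG, and the ETS motif CCGGAAG or its complement CTTCCGG. The stretches are chr5:129019906-129020068 (plus strand), chr8:94214314-94214563 (plus strand, the first of its 2 windows) and chr10:117792706-117792955 (minus strand). The first ends 88 bases before the RefSeq start and the others end at it.
Ran: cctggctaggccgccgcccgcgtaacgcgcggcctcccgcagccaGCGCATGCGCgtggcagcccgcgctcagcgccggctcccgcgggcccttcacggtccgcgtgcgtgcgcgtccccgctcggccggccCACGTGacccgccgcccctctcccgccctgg
Nup93: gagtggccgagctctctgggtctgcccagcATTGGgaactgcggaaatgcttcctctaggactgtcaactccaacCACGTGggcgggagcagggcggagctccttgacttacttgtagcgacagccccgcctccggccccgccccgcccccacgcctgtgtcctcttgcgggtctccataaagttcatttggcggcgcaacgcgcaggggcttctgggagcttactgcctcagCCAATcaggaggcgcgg
Nup107: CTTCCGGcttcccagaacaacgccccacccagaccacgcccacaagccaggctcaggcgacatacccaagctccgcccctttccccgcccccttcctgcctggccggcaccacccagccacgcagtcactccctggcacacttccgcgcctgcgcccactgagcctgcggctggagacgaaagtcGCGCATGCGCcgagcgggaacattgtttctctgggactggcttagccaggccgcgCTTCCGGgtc

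The Ran stretch holds an NRF1 motif from position -205 and an E-box from position -118, counted back from the start. That of Nup107 holds an NRF1 motif from position -65 and ETS motifs from positions -250 and -10, and that of Nup93 an E-box from position -175, whose last base is the first of a GC box, and CCAAT motifs from positions -220 and -17. Windows of 300 bases, 250 before to 50 after the start, were found for 37 of the 46 members, 44 windows in all. The NRF1 motif was in 11.4% of them (Ran, Nup107, Nup62, Nup50 and Xpo5), against 2.27% of windows of tested genes and 0.971% of all 32851 windows. The E-box was in 18.2% of member windows (Ran, Nup93, Nup54, Nup188, Ipo4, Ipo7, Tnpo2 and Xpot), against 10.1% and 7.15%. CCAAT was in 22 of 44, against 38.1% and 37.4%, the GC box GGGCGG in 68.2%, against 63.4% and 35.7%, and the element TTTGAA in 22.7%, against 12.2% and 17.9%. The ETS motif was in 15.9%, against 19.3% and 8.86%, the E2F motif TTTCGCGC in 2.27%, against 0.684% and 0.323%, and TTTGGCGC in 0 of 44 windows, against 1.00% and 0.514%. Both strands were searched and a match is a description of letters. Of members with a window, 4 of 19 that rose and 1 of 18 that did not pass hold the NRF1 motif, and 3 of 19 and 5 of 18 hold the E-box.

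The nucleoporins among the 46 genes are given by their place in the pore. Pore genes with other names, Tpr, Ndc1, Pom121, Sec13 and Seh1l among them, are outside these counts and sums. Nup98 was counted only with the cytoplasmic and mobile genes, and not in the Y complex. The Y complex, which builds the outer rings on both faces, had 4 of 6 genes higher and a median log2 fold change of 1.01, and the inner ring had 3 of 5 higher with a median of 0.60. The Y complex genes summed to 229 ± 19.6 CPM in aged and 117 ± 4.36 CPM in young cells (SD, n = 3 each), 1.96-fold higher, and the inner ring genes to 208 ± 7.37 CPM in aged and 114 ± 6.23 CPM in young cells, 1.82-fold higher. Neither of the 2 nuclear basket genes among the members passed, at 278 ± 14.8 CPM in aged and 244 ± 8.34 CPM in young cells together. The membrane nucleoporin Nup210 did not pass either. The difference between places in the pore was not tested.

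**Figure D4:**
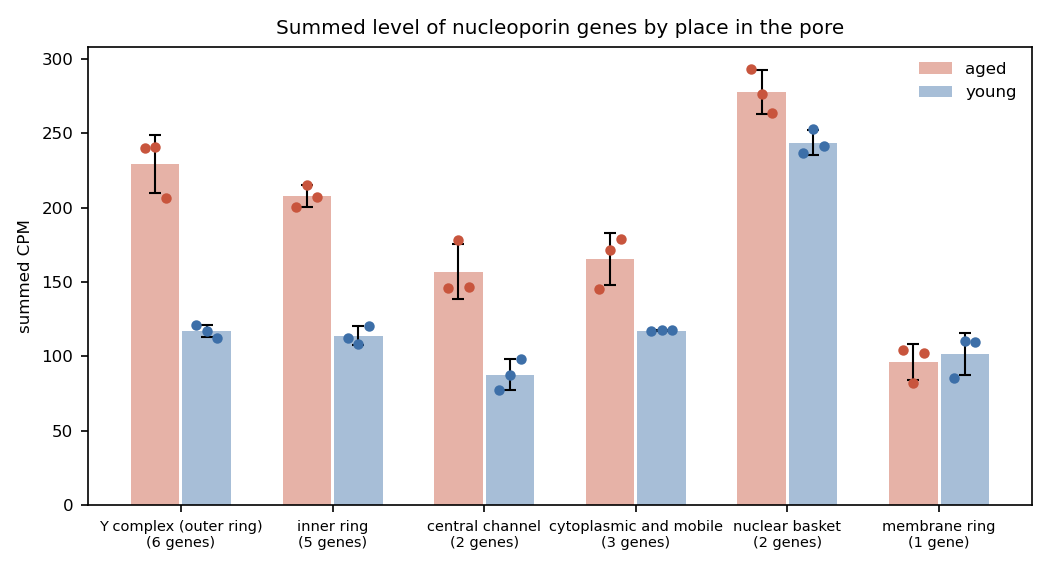
Summed CPM of the member nucleoporin genes at each place in the pore, without pore genes of other names, aged left and young right; bars are means, whiskers the SD of 3 libraries and points the libraries. The Y complex, inner ring, channel and cytoplasmic genes have all aged points above all young points, the basket genes do so by a small margin, and the points for Nup210, the membrane ring gene, overlap.

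In the Y complex Nup107 (ENSMUSG00000052798, chromosome 10, 117750621 to 117792705), a stalk subunit, had 112, 113 and 115 CPM in the aged libraries, against 60.9, 51.0 and 51.1 CPM in the young libraries. The aged values spanned less than 3 CPM and were all above the young values. It was 2.09-fold higher, with a log2 fold change of 1.05 ± 0.10 (SE; limma adjusted p = 3.94e-07). Nup85, a subunit of the short arm, had 68.6, 54.4 and 40.9 CPM in the aged libraries, against 24.4, 31.6 and 24.2 CPM in the young libraries, 2.05-fold higher (log2 fold change 0.99 ± 0.17, limma adjusted p = 0.000204). The lowest aged library exceeded the highest young library, though the aged libraries differed widely from each other. Nup133, at the end of the stalk, was at 16.9 ± 4.27 CPM in aged and 7.13 ± 3.77 CPM in young cells (SD, n = 3 each), with only 9 reads in Young replicate 2, and rose by 1.24 ± 0.31 on the log2 scale. Nup43 was at 10.97 ± 3.38 CPM in aged and 4.68 ± 0.409 CPM in young cells and rose by 1.03 ± 0.29, but lost its call without Aged replicate 1 (0.91), without Aged replicate 2 (0.90) and with DESeq2 (1.18). Nup37 (log2 fold change 0.50, 95% interval 0.07 to 0.92), at 20.4 ± 1.43 CPM in aged and 14.4 ± 3.22 CPM in young cells, did not pass, although its groups did not overlap and it passed without Young replicate 2 (0.65). Nup160, another subunit of the complex, was at 12.8 ± 4.84 CPM in aged and 9.89 ± 1.12 CPM in young cells and did not pass (0.29, -0.24 to 0.83).

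In the inner ring Nup93 (ENSMUSG00000032939, chromosome 8, 94214564 to 94317227), the scaffold that links its other subunits and anchors the channel, had 113, 112 and 106 CPM in the aged libraries, against 43.5, 47.4 and 57.6 CPM in the young libraries. It was 2.23-fold higher with no overlap, a log2 fold change of 1.15 ± 0.11 (SE; limma adjusted p = 3.91e-07). Nup155, which connects the ring to the membrane, had 32.3, 35.3 and 43.8 CPM in the aged libraries, against 22.6, 14.4 and 21.9 CPM in the young libraries, 1.89-fold higher (log2 fold change 0.90 ± 0.18, limma adjusted p = 0.00103), again without overlap. The large scaffolds Nup188 and Nup205, which bind Nup93 in separate complexes, had unlike calls, though the difference between them was not tested. Nup205 was at 29.4 ± 4.66 CPM in aged and 19.0 ± 2.22 CPM in young cells and rose by 0.60 ± 0.17, a call lost without Aged replicate 2 (0.48), without Young replicate 2 (0.52) and with DESeq2 (0.59). Nup188 was at 20.0 ± 0.923 CPM in aged and 18.8 ± 2.70 CPM in young cells and had a log2 fold change of 0.09 (95% interval -0.29 to 0.47), with overlapping groups and a value of -0.01 without Young replicate 3. Per Nup188 transcript end there were 5.97, 5.53 and 5.11 Nup93 ends in aged and 2.33, 2.20 and 3.57 in young libraries, a ratio chosen after the values were seen and not tested. Nup35, at 10.8 ± 2.45 CPM in aged and 6.97 ± 1.12 CPM in young cells, did not pass (95% interval 0.01 to 1.11), and its exons overlap those of Dusp19 (20.3 CPM) on the same strand.

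Nup62, the channel nucleoporin whose repeats form much of the barrier, had 119, 161 and 123 CPM in the aged libraries, against 61.7, 69.3 and 85.7 CPM in the young libraries. Aged replicate 2 was the highest, and every aged library was above every young library. The log2 fold change was 0.89 ± 0.12 (SE; limma adjusted p = 2.6e-05), and its exons overlap those of Atf5 (16.1 CPM) on the other strand. Its channel partner Nup54 was at 22.5 ± 4.78 CPM in aged and 15.6 ± 2.81 CPM in young cells with overlapping groups and did not pass (log2 fold change 0.50, 95% interval 0.07 to 0.93), except without Aged replicate 2 (0.67).

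On the cytoplasmic side Nup88, which holds Nup214 and binds the exportin Xpo1, had 79.9, 82.8 and 94.1 CPM in the aged libraries, against 56.1, 51.7 and 52.6 CPM in the young libraries. It rose by 0.67 ± 0.11 on the log2 scale with no overlap (SE; limma adjusted p = 0.000105), and its exons overlap those of Rabep1 (103 CPM) on the other strand. Nup214 was at 61.0 ± 8.06 CPM in aged and 49.9 ± 2.88 CPM in young cells and did not pass (log2 fold change 0.28, 95% interval 0.02 to 0.54) except without Aged replicate 1 (0.39), and it overlaps Fam78a (43.8 CPM) on the other strand. Nup98, which lies on both faces and moves off the pore, was at 18.9 ± 4.65 CPM in aged and 14.1 ± 2.54 CPM in young cells and did not pass (95% interval -0.08 to 0.84). In the nuclear basket, Nup153 was at 77.0 ± 8.89 CPM in aged and 64.0 ± 5.29 CPM in young cells and did not pass (log2 fold change 0.26, 95% interval 0.02 to 0.50) except without Aged replicate 3 (0.35). Nup50, which helps importin alpha release its cargo, was the most abundant nucleoporin among the members, at 201 ± 12.8 CPM in aged and 179.7 ± 3.21 CPM in young cells, and did not pass (log2 fold change 0.16, limma adjusted p = 0.13). Nup210, a membrane nucleoporin known in mice for a part in the survival of CD4 T cells, was at 96.3 ± 12.1 CPM in aged and 102 ± 14.2 CPM in young cells with a log2 fold change of -0.07 (95% interval -0.32 to 0.17), which was 0.03 without Aged replicate 2.

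Among pore subunits with other names, 5 of 11 tested rose and 0 fell, with a median log2 fold change of 0.30. Ndc1, a membrane anchor of the pore, was at 27.4 ± 2.77 CPM in aged and 11.9 ± 0.906 CPM in young cells (SD, n = 3 each), 2.30-fold higher (log2 fold change 1.13 ± 0.18, limma adjusted p = 0.000112). Its fellow membrane protein Pom121 was 1.46-fold higher, and 2 genes of the Y complex and its chromatin tether, Sec13 and Ahctf1, were 1.49-fold and 1.40-fold higher. Rae1, an mRNA export factor on the pore, also rose. The 6 that did not pass had log2 fold changes of 0.14 (Ranbp2), 0.10 (Tpr), 0.30 (Nupl2), 0.17 (Seh1l), 0.16 (Gle1) and -0.05 (Aaas). Tpr was at 709 ± 34.5 CPM in aged and 663 ± 49.3 CPM in young cells. Nupl1 was listed at 0 in every library, which need not mean absence, since its transcript end was not searched for near-identical copies.

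Import receptors carry cargo either directly or through an importin alpha adaptor that reads the classical nuclear localisation signal. Of the 5 importin alpha genes 3 rose, and of the 11 genes of the importin beta family 5 rose. Kpnb1, which encodes importin beta, the receptor for importin alpha, had 207, 230.0 and 221 CPM in the aged libraries, against 157, 146 and 149.9 CPM in the young libraries. The groups were apart by more than their spread, and the log2 fold change was 0.54 ± 0.08 (SE; limma adjusted p = 3.02e-05).

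Kpna2 (ENSMUSG00000018362, chromosome 11, 106988629 to 106999541), an importin alpha abundant in dividing cells, had 149, 214 and 196 CPM in the aged libraries, against 91.3, 61.7 and 120.3 CPM in the young libraries. All aged libraries were above all young libraries, and the log2 fold change was 1.06 ± 0.17 (SE; limma adjusted p = 8.14e-05). Its transcript end is near-identical to that of Gm10184 on chromosome 17, which had 59.4, 39.1 and 0 CPM in the aged libraries, against 15.7, 27.6 and 0 CPM in the young libraries, so reads could be divided between them. Summed, they had 208, 253 and 196 CPM in the aged libraries, against 107, 89.4 and 120.3 CPM in the young libraries, with a log2 fold change of 1.05 ± 0.11 (limma adjusted p = 6.25e-07). The sum was 2.08-fold higher, close to the 2.04-fold of Kpna2 alone, with a smaller spread among young libraries. Other near-identical copies, Kpna2-ps and Gm10259 among them, had no value here, so reads that went to them are missing from the sum.

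Kpna1 had 74.3, 74.0 and 80.5 CPM in the aged libraries, against 52.2, 47.4 and 50.7 CPM in the young libraries, without overlap (log2 fold change 0.60 ± 0.11, limma adjusted p = 0.000318). Kpna3 had 168, 148 and 141 CPM in the aged libraries, against 114, 113 and 109.5 CPM in the young libraries, also without overlap (log2 fold change 0.44 ± 0.09, limma adjusted p = 0.00082). Kpna4, the close relative of Kpna3, was at 115 ± 3.66 CPM in aged and 103 ± 3.15 CPM in young cells (SD, n = 3 each) with a log2 fold change of 0.15 (95% interval -0.03 to 0.34) that did not pass. Kpna6, the least abundant of the 5, was at 20.6 ± 6.03 CPM in aged and 15.7 ± 0.0739 CPM in young cells and did not pass either (95% interval -0.11 to 0.77). Within a library, Kpna2 with Gm10184 made up 35.4, 41.6 and 35.4% of importin alpha CPM in aged and 27.1, 24.5 and 30.1% in young libraries. The share of Kpna4 was 19.7 ± 0.961% in aged and 26.7 ± 0.755% in young cells, and that of Kpna3 26.1 ± 2.17% and 29.0 ± 1.75% (SD, n = 3 each). Kpna2 with Gm10184 thus had the largest share in each aged library and in Young replicate 3, while Kpna3 did in Young replicates 1 and 2. These shares were chosen after the values were seen and were not tested, and they leave out the Kpna2 copies without a value.

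**Figure D5:**
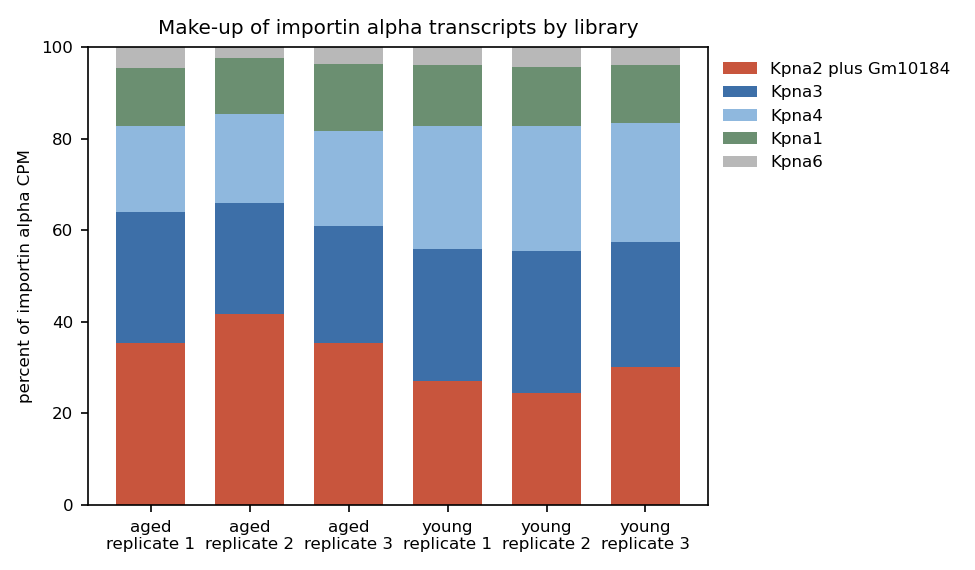
Percent of the summed importin alpha CPM taken by each gene in each library, aged libraries left and young libraries right. Kpna2 includes the near-identical copy Gm10184, and not the copies without a value. The Kpna2 share is 35.4 to 41.6% in aged and 24.5 to 30.1% in young libraries, and the Kpna4 share 18.9 to 20.8% in aged and 25.9 to 27.3% in young libraries.

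Of the receptors that bind cargo themselves, Ipo5, which imports ribosomal proteins and core histones, had 174, 176 and 180.2 CPM in the aged libraries, against 119.6, 105 and 138 CPM in the young libraries. It rose by 0.55 ± 0.09 on the log2 scale (SE; limma adjusted p = 0.000185), with aged libraries close together. Tnpo1, the receptor for hnRNP proteins with a PY signal, had 84.0, 79.0 and 75.3 CPM in the aged libraries, against 57.4, 53.5 and 64.9 CPM in the young libraries. It rose by 0.43 ± 0.11 (limma adjusted p = 0.00515) without overlap, a call not made by DESeq2 (0.39). Tnpo3, which imports SR splicing factors, was at 178 ± 18.2 CPM in aged and 146 ± 7.49 CPM in young cells (SD, n = 3 each) and rose by 0.29 ± 0.09. Its call was lost without Aged replicate 1 (0.28), Aged replicate 3 (0.22) or Young replicate 1 (0.25), with upper-quartile scaling (0.205) and with DESeq2 (0.24), and it overlaps Irf5 (6.07 CPM) on the other strand. Ipo4, at 31.2 ± 3.54 CPM in aged and 21.9 ± 5.08 CPM in young cells, rose by 0.51 ± 0.18 with a limma adjusted p of 0.0361. Its call was lost without Aged replicate 1 (0.56), Aged replicate 3 (0.42), Young replicate 1 (0.45) or Young replicate 2 (0.40), under scaling by TMM (0.46), RLE (0.47) or the upper quartile (0.43), and in DESeq2 (0.46).

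Ipo7, which shares ribosomal protein cargo with Ipo5, was at 98.5 ± 9.82 CPM in aged and 81.4 ± 3.14 CPM in young cells and lay just outside the threshold (log2 fold change 0.27 ± 0.10, limma adjusted p = 0.0512), although the groups did not overlap. It passed without Aged replicate 3 (0.34), with a pseudocount of 5 (limma adjusted p = 0.048), with only genes averaging at least 5 CPM (limma adjusted p = 0.0452), with edgeR (adjusted p = 0.043) and with limma-voom (adjusted p = 0.0479). Ipo13 was at 17.4 ± 1.29 CPM in aged and 13.0 ± 1.88 CPM in young cells without overlap, Ipo11 at 19.4 ± 4.81 CPM in aged and 16.1 ± 4.28 CPM in young cells, Ipo8 at 31.4 ± 5 CPM in aged and 29.2 ± 4.04 CPM in young cells and Ipo9 at 20.7 ± 4.28 CPM in aged and 20.0 ± 6.65 CPM in young cells. The log2 fold changes, 0.40 for Ipo13, 0.26 for Ipo11, 0.10 for Ipo8 and 0.08 for Ipo9, missed the threshold, and those of Ipo8 and Ipo9 turned negative without Aged replicate 3 (-0.03 and -0.06), that of Ipo9 also without Young replicate 2 (-0.19). Tnpo2, the paralog of Tnpo1, was at 34.2 ± 9.62 CPM in aged and 39.9 ± 8.05 CPM in young cells with a log2 fold change of -0.23 (95% interval -0.62 to 0.16) and overlapping groups. The interval of Tnpo1 was 0.21 to 0.66, and the difference between the paralogs was not tested.

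Among exportins, Xpo1 (ENSMUSG00000020290, chromosome 11, 23256041 to 23298249), also called CRM1, the receptor for leucine-rich export signals, had 176, 151 and 183 CPM in the aged libraries, against 114, 98.7 and 123 CPM in the young libraries. It was 1.52-fold higher without overlap, a log2 fold change of 0.60 ± 0.10 (SE; limma adjusted p = 0.00012). Cse1l, which returns importin alpha to the cytoplasm, had 54.8, 79.3 and 64.5 CPM in the aged libraries, against 45.6, 34.5 and 47.6 CPM in the young libraries. The aged libraries spread widely but all lay above the young ones, and the log2 fold change was 0.62 ± 0.15 (limma adjusted p = 0.0033).

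Xpo4, which exports eIF5A and SMAD3, had 36.9, 46.8 and 38.6 CPM in the aged libraries, against 22.2, 22.6 and 25.4 CPM in the young libraries, 1.74-fold higher (log2 fold change 0.77 ± 0.15, limma adjusted p = 0.00065). Xpo5, the exporter of precursor microRNAs, had 28.7, 36.8 and 38.6 CPM in the aged libraries, against 22.2, 19.0 and 20.4 CPM in the young libraries, 1.69-fold higher (log2 fold change 0.72 ± 0.16, limma adjusted p = 0.00239). Both were free of overlap between the groups. Xpot, which exports tRNA, had 63.0, 57.9 and 61.6 CPM in the aged libraries, against 51.3, 48.5 and 49.2 CPM in the young libraries. Its groups did not overlap either, but its log2 fold change of 0.29 ± 0.11 missed the threshold (limma adjusted p = 0.0608).

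Xpo7, an exportin known for its part in red cell maturation, had 65.0, 68.6 and 84.2 CPM in the aged libraries, against 73.9, 64.6 and 64.5 CPM in the young libraries, with overlapping groups and a log2 fold change of 0.09 (95% interval -0.15 to 0.34; -0.02 without Aged replicate 3). Xpo6, the exporter of actin with profilin, was at 39.6 ± 6.33 CPM in aged and 42.0 ± 4.41 CPM in young cells (SD, n = 3 each) with a log2 fold change of -0.09 (95% interval -0.39 to 0.21; 0.01 without Aged replicate 3). The interval of Xpo1 was 0.39 to 0.80, and the difference between exportins was not tested.

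Neighbouring pathways were read from lists drawn up by known role. Of 8 further transport factors tested 0 rose and 1 fell, with a median log2 fold change of 0.26. The one that fell was Phax, an adaptor for snRNA export, at 72.0 ± 7.40 CPM in aged and 89.6 ± 6.51 CPM in young cells (SD, n = 3 each; log2 fold change -0.31 ± 0.11, limma adjusted p = 0.0337). Nutf2 and Ranbp17 of this list were listed at 0 in every library. Shared transcript ends were searched only for the members, so these zeros need not mean absence, and their cause was not tested. Of 21 genes of mRNA export 9 rose and 1 fell (median 0.36). The helicase gene Ddx39 and the adaptor gene Alyref were 1.79-fold and 1.77-fold higher, Alyref at 222 ± 9.95 CPM in aged and 126 ± 25.8 CPM in young cells, and Ddx19b fell by 0.56 on the log2 scale. Of 18 genes of the lamina and envelope 6 rose and 1 fell (median 0.18). Lmnb1, which encodes lamin B1, was at 369 ± 3.99 CPM in aged and 201 ± 21.3 CPM in young cells, 1.84-fold higher (limma adjusted p = 9.85e-08), Tmpo and Banf1, which tie chromatin to the envelope, were 1.77-fold and 1.53-fold higher, and Syne1, a linker to the cytoskeleton, fell by 0.60 on the log2 scale. Of 9 genes of the SUMO pathway, which modifies Rangap1 at the pore, 5 rose and 0 fell (median 0.31), among them the activating enzyme genes Sae1 and Uba2, 1.30-fold and 1.44-fold higher. The shares that rose in these lists stand beside 16.2% of all tested genes.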

How the data were processed

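RNA of 3 aged and 3 young CD8 T cell libraries had been read with QuantSeq 3' mRNA-Seq, per the labels' protocols. The authors deposited counts per 1000000 counts (CPM) per Ensembl gene; the build was GRCm38 (mm10), per the submitters' processing notes, while for the aligner, counter, annotation and use of strand the sources used here give nothing. CPM summed to 1000000 per library, and 100% of values were whole multiples of the value of 1 read, within 0.001 reads, so reads were recovered: 1 read was worth 0.359 to 0.512 CPM, and a floor of 3 reads 1.08 to 1.54 CPM, which covers counting error only. Replicates differed by more than sampling noise (chi-square per degree of freedom 1.72 to 2.90). One file's header names Aged replicate 3, but the file is recorded as that of Aged replicate 2 and was used so.

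Symbols, coordinates and exon overlaps came from GENCODE M21, which named 25599 of 25654 identifiers; 1 identifier was blank in every file. Genes averaging 1 CPM or more were tested with limma 3.58.1 (R 4.3.3) on log2(CPM + 1), with a mean-dependent prior and adjustment over all 10511 genes. Fold changes on this scale understate the change of low genes. Transcript ends were called near-identical when their last 300 bases matched at 95% or more over at least 100 bases. Alternatives were other scalings, pseudocounts and filters, a block on the replicate number, leaving out each library, and, on recovered reads, edgeR 4.0.16, DESeq2 1.42.0 and limma-voom. The method was also run on simulated libraries with the same dispersion for every gene. That setting is simpler than these data, so it gives no error rate for them. The members and lists were chosen with earlier results of these data known. Named with values in each library were up to 6 genes of smallest p in each class (Xpot and Xpo7 among the exportins) and all 4 of the Ran cycle; of the other lists, up to 4 of smallest p were named. Rae1, Ddx19b, Syne1, Rangrf, Ranbp6 and the other pore subunits that did not pass were added after their values were seen. The same holds for the named markers of CD8 T cells and of other cells, and for the further members given as means or intervals.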

Additional observations from a re-analysis of the deposited data

How the results depend on the processing

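Of 783 results for single members under an alternative, 747 kept their direction and their side of the threshold, 20 lost a call, 9 gained one and 7 changed sign. Of the 25 members that rose, 20 kept the call under every alternative, and Ipo4, Tnpo3, Nup43, Nup205 and Tnpo1 lost it under at least 1. The count that rose was 20 with DESeq2 and 23 to 26 under the other settings on all 46 genes, and 0 fell in each. The 20 called by DESeq2 were all among the 25. Over all genes DESeq2 called 944 higher and 1014 lower, against 1701 and 1313 with limma on CPM, and upper-quartile scaling called 1306 and 1689. The median log2 fold change of all genes stayed between -0.045 and 0.051. Upper-quartile scaling gave a median of 0.29 for import genes (0.36 as reported), and a pseudocount of 5 a median of 0.41 for pore genes (0.56 as reported); a larger pseudocount shrinks low genes. Chosen after seeing the data, the set without members that have overlapping exons or near-identical ends left 26 genes, of which 13 rose, and 1 gene of the Ran cycle, Ran, with 0.60 (median 0.85 with all 4). Leaving out 1 library turned the sign of 6 members that did not pass: log2 fold changes ranged from -0.195 to 0.033 for Nup210, -0.026 to 0.205 for Ipo8, -0.187 to 0.294 for Ipo9 (-0.057 without Aged replicate 3), -0.016 to 0.168 for Xpo7, -0.209 to 0.012 for Xpo6 and -0.006 to 0.191 for Nup188, and the cause was not tested. With the replicate number as a block 25 rose, all of the same 25. Deviations of same-numbered libraries correlated at 0.021, 0 and 0.003, and not every library correlated best with its own number. Such correlations cannot exclude that same-numbered libraries were handled together. Gm10184 was at 0 CPM in Aged replicate 3 and Young replicate 3 and at 15.7 to 59.4 CPM in the other libraries, and the cause was not tested. Nup133, Nup43 and Nup35, with 9, 11 and 15 reads in their lowest library, are the least precise.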
